A study of Mus musculus with 48 samples.

Results

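The comparison described here set the livers of 4 mice with an induced knockout of Bmal1 against those of 4 control mice at a single time of day, ZT12, which makes up 8 of the 48 liver RNA-seq libraries of the series. The 8 libraries were chosen by their labels: KO mice 18, 20, 21 and 24, and WT mice 17, 19, 22 and 23. The series sampled both genotypes at 6 times, 4 h apart, with 4 mice of each genotype at each, to ask which liver transcripts depend on the clock gene Bmal1 in adult animals. All mice were C57BL/6 males aged 4 to 6 months. KO mice carried Bmal1 f/f and a tamoxifen-inducible Cre expressed in all tissues (EsrCre), a design meant to delete Bmal1 in all organs of the adult mouse. The controls, labelled WT, were Cre- littermates that also carried Bmal1 f/f. Tamoxifen, 5 mg a day, was gavaged on 5 days to both genotypes. From 7 days after the last dose the mice were held in constant darkness for 36 h, and they were killed in darkness. Cre was present only in the KO mice, so that the presence of Cre and the loss of Bmal1 cannot be told apart. KO mouse 20 and WT mouse 19 were housed alone, and the other 6 mice were cage mates across genotypes: KO 18 with WT 17, KO 21 with WT 22, and KO 24 with WT 23.

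Arntl encodes BMAL1, a transcription factor that binds E-box sequences (CACGTG) as a dimer with CLOCK or with NPAS2. The dimer switches on the Per and Cry repressors, which feed back on it, and the nuclear receptors REV-ERBα and REV-ERBβ (Nr1d1 and Nr1d2), which repress Arntl, Npas2, Clock and Cry1. In the liver the clock also acts through the D-box factors DBP, TEF and HLF, and it times the expression of genes for lipid, bile acid, glucose and drug metabolism. ZT12 is the hour at which lights went off before the mice were moved to constant darkness, and at which the transcripts of many E-box targets are near their daily high in a control liver.

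The 8 libraries held 33648010 to 33981437 counts each, so depth did not separate the genotypes. Expression is given as CPM, counts divided by the library's total after edgeR's TMM scaling. Per-mouse values are always listed in the order KO 18, 20, 21 and 24, and WT 17, 19, 22 and 23. CPM values take no account of transcript length and compare a gene between mice, not with another gene. KO mice 20 and 21 stood apart from the rest. Their mean correlation with the other libraries of their own group (log2 CPM) was 0.977 and 0.974, against 0.981 for KO 18, 0.982 for KO 24, 0.986 to 0.988 for the 4 WT mice and 0.980 to 0.990 for the 40 libraries of the other times. In KO 21, 168 genes were over 2-fold above and 335 over 2-fold below the median of the other 7 mice, among genes averaging at least 5 CPM. In KO 20 these counts were 131 and 189. KO 18 and KO 24 had 87 to 100 genes above and 67 to 73 below, and the WT mice 52 to 69 above and 56 to 115 below. Counts in KO 21 also shifted towards short transcripts. The slope of its log2 CPM, less the mean of all libraries, on log2 transcript length was -0.210, against -0.0628 to 0.0270 in the other 7 mice and -0.0523 to 0.104 in the 40 other libraries. Because of these 2 mice, the numbers of calls, over all genes and within each gene list, are also given without them.

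**Figure D1:**
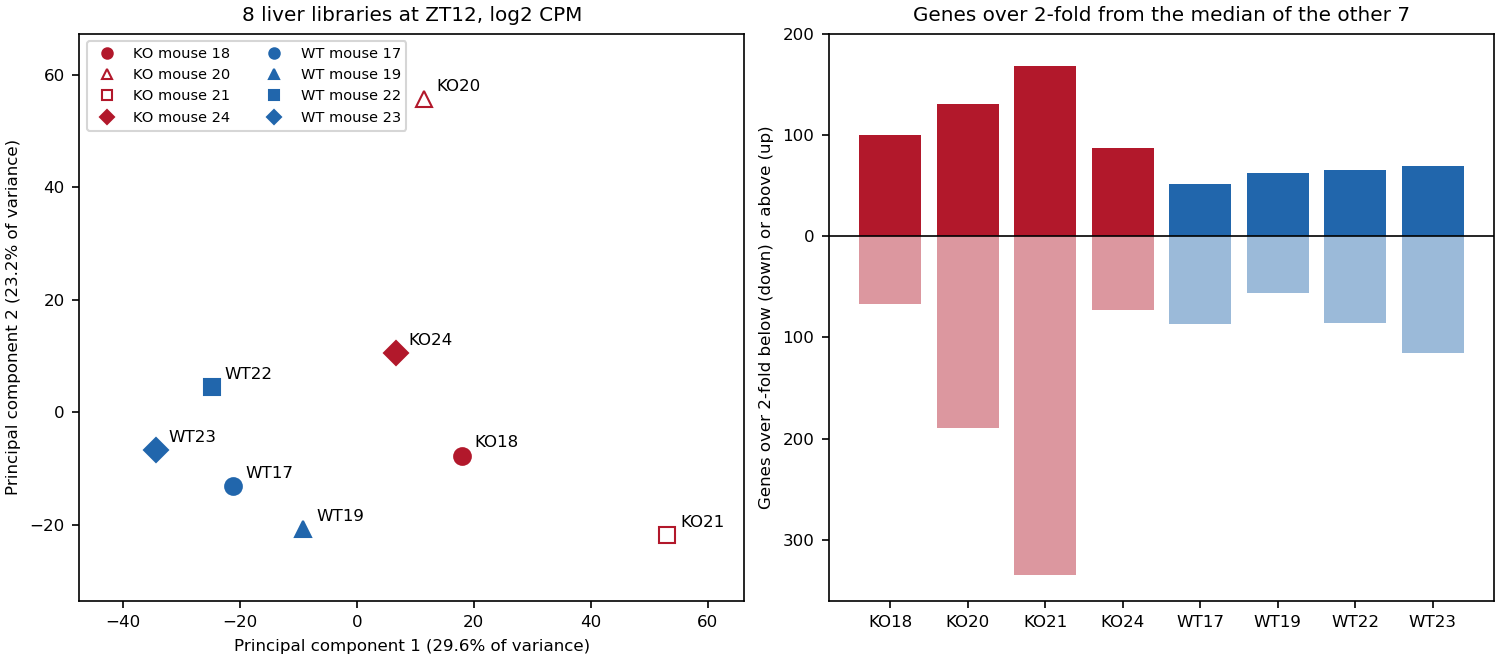
Left, the first and second principal components of log2 CPM of the 8 ZT12 libraries (29.6% and 23.2% of the variance), with each mouse labelled; right, for each mouse, the number of genes over 2-fold above (up) and over 2-fold below (down) the median of the other 7 mice. KO 21 lies at the far end of the first component and KO 20 at the far end of the second, and KO 21 has the most genes below the others, 335.

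At ZT12, 1737 of the 14836 genes tested (11.7%) differed between KO and WT mice, by edgeR's quasi-likelihood test with Benjamini-Hochberg adjustment at 0.05. Of these, 977 were higher in KO (6.59% of the genes tested) and 760 lower (5.12%). Counts of calls within each gene list below are to be read against these shares. Differences of single genes are given as the log2 fold change KO over WT (log2 FC) ± SE with its adjusted p. Most changes were small, with a median absolute log2 fold change of 0.503, and 180 higher and 129 lower genes differed at least 2-fold. The split between higher and lower calls depended on the scaling: 56.2% of calls were higher in KO with TMM, and 41.9% of 1610 calls with total counts alone, which moved the median log2 fold change of all genes to -0.04, against 0.01 with TMM. The values of the 4 KO and 4 WT mice did not overlap for 1063 of the 1737 called genes (61.2%), and for 1551 of all genes tested (10.5%).

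Without KO 20 and KO 21, 754 genes passed (5.08%), of which 429 were higher (2.89%) and 325 lower (2.19%). Of the 1737 calls, 603 stayed and 1134 did not pass with the 2 remaining KO mice, while 151 other genes passed only there. Among the 1134, 438 (38.6%) kept at least 0.8 of their log2 fold change, 479 kept 0.5 to 0.8 of it and 217 (19.1%) kept less than 0.5. The median ratio of the log2 fold changes, without over with the 2 mice, was 0.731 for the calls lost and 1.06 for the calls that stayed. A single gene changed its sign, Rpl22, a protein of the large ribosomal subunit, whose log2 fold change was 0.30 with all mice and -0.01 without KO 20 and 21. The 2 mice were not alone in their weight on the calls: 469 calls were lost without KO 20 and 729 without KO 21, but 731 were lost without WT 23 and 677 without WT 17. The smallest numbers were 173 without KO 24, 264 without WT 19, 303 without KO 18 and 377 without WT 22. Leaving out each mouse in turn kept 643 genes called in all 8 fits. In a fit on the 8 libraries alone, which has 6 residual degrees of freedom in place of 36, 231 genes passed (1.56%), 229 of them shared with the 1737. The main fit takes the spread of each gene from all 12 groups, and KO mice at ZT12 mostly varied more than WT mice. Between pairs of mice the variance, over that of counting, was 80.2 to 169 in KO and 44.9 to 90.1 in WT. SEs and adjusted p of the main fit may thus be too small for these mice. On the 8 libraries alone, Sult1e1 had an adjusted p of 0.056 and Cyp3a16 of 0.126.

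**Figure D2:**
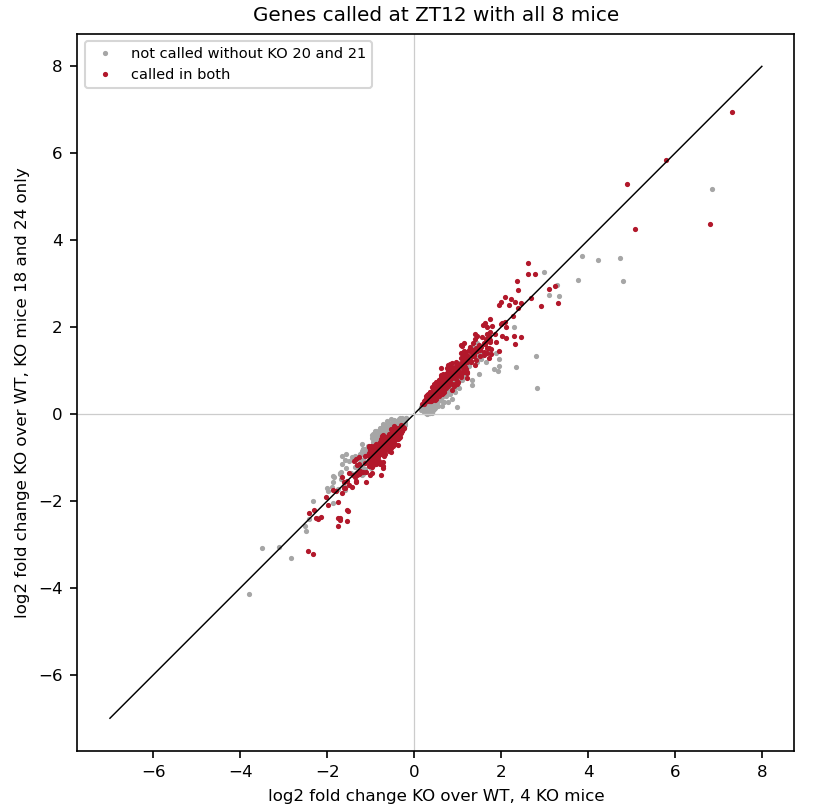
Log2 fold change KO over WT of the 1737 genes called with all 8 mice (x axis) against the value with KO mice 18 and 24 only (y axis); red points are the 603 genes called in both, grey points the 1134 called only with all 8 mice, and the line marks equal values. Most points keep their sign, and the grey points lie on average nearer to 0 on the y axis than on the x axis.

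The clearest group was the E-box targets of the clock. Of 16 genes known as direct targets of BMAL1 and CLOCK, 12 fell in KO and none rose, where 5.12% of all genes tested fell. Their median log2 fold change was -1.16, against 0.01 over all genes tested. In 14 of the 16 the KO and WT values did not overlap, against 10.5% of all genes tested. The median was -1.07 without KO 20 and 21, and 5 of the 16 passed (Tef, Wee1, Nampt, Usp2 and Tspan4). In the fit on the 8 libraries alone 10 fell, and with the length slope as a covariate 9.

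Promoters were searched for an E-box (CACGTG, palindromic, so that both strands read alike) and a D-box (TTATGTAA or TTACGTAA, either strand). Those of Gm129, which held the most E-boxes, of Per3, which held D-boxes, and of Tef, with an E-box before each of its starts, are shown with these letters in capitals; no other motif overlaps them. Per1, Bhlhe41 and Tspan4 of the same list and Cry1 also held CACGTG before their start and are not shown. The sequences are the 250 bases before the RefSeq start on GRCm38.p6, read 5′ to 3′ on the strand of the gene. They stand for the repressor gene Gm129 (Ciart in RefSeq, chr3:95882229-95882478, minus strand), for Per3 (chr4:151044666-151044915, minus strand) and for the 2 starts of Tef (chr15:81802423-81802672 and chr15:81811164-81811413, plus strand).
Gm129: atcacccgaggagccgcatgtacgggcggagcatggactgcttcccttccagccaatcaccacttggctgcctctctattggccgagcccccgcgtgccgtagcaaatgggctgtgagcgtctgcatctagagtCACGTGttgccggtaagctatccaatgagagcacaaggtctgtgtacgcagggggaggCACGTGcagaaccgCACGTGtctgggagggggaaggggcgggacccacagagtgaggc
Per3: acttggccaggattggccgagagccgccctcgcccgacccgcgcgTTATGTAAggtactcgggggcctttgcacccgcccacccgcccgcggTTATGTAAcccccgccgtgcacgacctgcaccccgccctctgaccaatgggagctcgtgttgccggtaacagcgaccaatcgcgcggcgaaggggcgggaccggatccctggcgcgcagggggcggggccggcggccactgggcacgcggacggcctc
Tef, upstream start: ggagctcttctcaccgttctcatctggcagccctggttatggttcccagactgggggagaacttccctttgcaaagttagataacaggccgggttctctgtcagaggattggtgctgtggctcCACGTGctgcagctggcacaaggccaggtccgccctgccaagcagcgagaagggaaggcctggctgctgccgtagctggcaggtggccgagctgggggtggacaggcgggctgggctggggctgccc
Tef, downstream start: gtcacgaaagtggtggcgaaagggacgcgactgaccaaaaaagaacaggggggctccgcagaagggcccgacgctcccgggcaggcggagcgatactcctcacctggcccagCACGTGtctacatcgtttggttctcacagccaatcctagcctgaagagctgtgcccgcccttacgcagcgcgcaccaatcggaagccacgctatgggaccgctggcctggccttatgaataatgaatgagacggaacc
Gm129 holds 3 E-boxes, with first bases 116, 58 and 44 bases before the start, and Per3 holds 2 D-boxes, 205 and 158 bases before it. Each start of Tef has 1 E-box, 127 bases before the upstream and 138 before the downstream start. Of the 13 E-box targets matched to a RefSeq promoter, 5 held CACGTG and 1 held the D-box within the 300 bases from 250 before to 50 after the start. Among all 32851 RefSeq promoters of that length, 7.15% held CACGTG and 1.06% the D-box. These shares count single promoters, while a target was counted if any of its promoters matched, and some targets have more than 1. A match describes the letters and was not tested as a binding site.

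Arntl itself, the targeted gene (chr7:120350979-120457636 on mm9, the build of the deposited counts), was not lower in KO libraries. It had 20.1, 12.7, 16.3 and 22.7 CPM in KO mice, against 1.21, 7.09, 5.98 and 13.4 CPM in WT mice. The 3 highest values were KO mice, but KO 20 lay below WT 23, and the difference did not pass (log2 FC 1.38 ± 0.49, adjusted p = 0.0581). The floxed allele removes part of the gene, so that counts over the whole gene do not show whether the deletion took place. Npas2 (chr1:39250576-39420079), which encodes the partner of BMAL1 that can replace CLOCK, showed the largest rise among the clock genes. It had 4.59, 22.7, 4.83 and 12.9 CPM in KO mice, against 0.0289, 0.0894, 0.123 and 0.0301 CPM in WT mice, and the WT values rest on 1, 3, 4 and 1 counts. Each KO mouse was above each WT mouse, and KO 20 was the highest (log2 FC 7.31 ± 0.94, adjusted p = 1.51e-06). The rise remained without KO 20 and 21 (log2 FC 6.95, adjusted p = 3.13e-05).

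The Period genes, which encode the repressors of BMAL1 and CLOCK, had lower means in KO, and 2 of the 3 passed. Per3 (chr4:150377761-150418774) had 15.5, 5.21, 14.8 and 12 CPM in KO mice, against 50.4, 43, 35 and 46.2 CPM in WT mice. All KO values were below all WT values, and KO 20 was the lowest (log2 FC -1.88 ± 0.46, adjusted p = 0.00581). The fall in Per3 did not pass without KO 20 and 21 (log2 FC -1.67, adjusted p = 0.0883). Per2 (chr1:93312561-93355907) had 46.4, 31.2, 21.7 and 36 CPM in KO mice, against 78.1, 74, 75.5 and 75.2 CPM in WT mice. The 4 WT mice were close together, the KO mice spread over a wider range below them, and the fall passed narrowly (log2 FC -1.16 ± 0.39, adjusted p = 0.0452). It did not pass without any of KO 20, KO 21, KO 24 or the 4 WT mice in turn. Per1 (chr11:68908719-68923462) had 11.6, 23.6, 34.3 and 26.2 CPM in KO mice, against 64.7, 41.1, 37.9 and 55 CPM in WT mice, and although the groups did not overlap the test did not pass (log2 FC -1.06 ± 0.48, adjusted p = 0.143). Cry2, the other type of repressor in the list, had 43.5, 41, 39.5 and 42.3 CPM in KO mice, against 45.6, 46.3, 46.8 and 57.1 CPM in WT mice, again without overlap and without passing (log2 FC -0.24 ± 0.10, adjusted p = 0.129). Cry1, which both E-boxes and REV-ERBs control, overlapped fully between the genotypes at 33.3 ± 9.95 CPM in KO mice and 31.3 ± 9.95 CPM in WT mice (SD, n = 4 each; log2 FC 0.09 ± 0.37, adjusted p = 0.912).

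Gm129, also called Chrono, encodes a further repressor of BMAL1 and fell the most of the E-box targets. It had 2.36, 0.328, 2.84 and 1.02 CPM in KO mice, against 16.7, 13.5, 18.9 and 7.32 CPM in WT mice (chr3:95682426-95686174). KO 20 was the lowest and WT 23 the lowest of the controls, and the groups did not overlap (log2 FC -3.11 ± 0.76, adjusted p = 0.00563). Its log2 FC was -3.06, adjusted p = 0.0625 without KO 20 and 21. Of the 2 DEC repressors only Bhlhe40 passed. It had 120.4, 101, 49 and 127 CPM in KO mice, against 182, 180.4, 219.5 and 155 CPM in WT mice (log2 FC -0.89 ± 0.28, adjusted p = 0.0339), with KO 21 far below the other KO mice. Bhlhe41 had 2.3, 1.02, 1.03 and 2.31 CPM in KO mice, against 5.12, 5.27, 3.8 and 1.96 CPM in WT mice, with WT 23 inside the KO range (log2 FC -1.27 ± 0.52, adjusted p = 0.109).

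The D-box activators fell together. Dbp (chr7:52960458-52965525) had 6.4, 2.46, 13.1 and 5.45 CPM in KO mice, against 74.7, 25.9, 38.4 and 14.8 CPM in WT mice. The WT values were widely spread, and the lowest, WT 23, was still above the highest KO value, in KO 21 (log2 FC -2.49 ± 0.81, adjusted p = 0.0376). Tef (chr15:81632851-81657291) had 108, 98.2, 118 and 86.9 CPM in KO mice, against 293, 196, 245 and 244 CPM in WT mice, and the KO mean was 0.421 of the WT mean (log2 FC -1.25 ± 0.26, adjusted p = 0.00101). Hlf (chr11:90197849-90252231) had 75.2, 68.2, 65.4 and 74.2 CPM in KO mice, against 96.3, 93.1, 121 and 109 CPM in WT mice, a smaller fall without overlap (log2 FC -0.56 ± 0.12, adjusted p = 0.0020). Tef still passed without KO 20 and 21 (adjusted p = 0.0145), while Dbp (adjusted p = 0.148) and Hlf (adjusted p = 0.060) did not. Dbp shares bases with Sphk2, and the reads carry no strand, so that counts from the 2 genes cannot be fully told apart.

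Of the 2 REV-ERB genes, only Nr1d2 passed at this time. Nr1d2 (REV-ERBβ, chr14:19036568-19071641) had 40.7, 28.1, 41.7 and 36.4 CPM in KO mice, against 92.8, 71.4, 74.5 and 90.2 CPM in WT mice, with no overlap (log2 FC -1.16 ± 0.35, adjusted p = 0.024). Nr1d1 (REV-ERBα) had 26.2, 9.21, 17.9 and 20.7 CPM in KO mice, against 27.1, 17.4, 17.6 and 13.6 CPM in WT mice, with full overlap (log2 FC -0.03 ± 0.64, adjusted p = 0.983). At ZT12 Nr1d1 was already far below its daily peak in WT livers, where the highest mean, 135 CPM, was at ZT4 and the mean at ZT12 was 18.9 CPM. Nr1d1 overlaps Thra. Of the 6 genes known to be repressed by REV-ERBs or driven through their response elements, only Npas2 rose and none fell, and without KO 20 and 21 Npas2 and Clock rose (median log2 fold change 0.54 with all mice). Clock had 79.2, 90.7, 31.8 and 94.1 CPM in KO mice, against 34.7, 50.3, 49 and 64.1 CPM in WT mice. Of the 4 KO mice, KO 21 alone was below every WT mouse, and the difference passed without KO 20 and 21 (log2 FC 0.81, adjusted p = 0.0312) and not with them (log2 FC 0.58 ± 0.23, adjusted p = 0.0933). Nfil3 (log2 FC 0.49 ± 0.27, adjusted p = 0.234) overlapped between the genotypes.

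Other E-box targets with roles outside the core loop fell by similar amounts and held up best. Nampt (chr12:33505200-33538234), the rate-limiting enzyme of NAD salvage, had 113, 89.7, 125 and 99.2 CPM in KO mice, against 209, 243, 201 and 229.8 CPM in WT mice. Every KO mouse was well below every WT mouse (log2 FC -1.05 ± 0.16, adjusted p = 2.36e-05), and the log2 fold change without KO 20 and 21 was -1.05, adjusted p = 0.00158. Usp2 (chr9:43875104-43903708), a deubiquitinase, had 32.6, 35.7, 34.5 and 26.2 CPM in KO mice, against 97.4, 85.8, 102 and 82.5 CPM in WT mice, with both groups tight and far apart (log2 FC -1.51 ± 0.33, adjusted p = 0.00171). Tspan4, a tetraspanin, had 69.5, 51.7, 96.5 and 58.9 CPM in KO mice, against 142, 133, 111 and 128 CPM in WT mice, with KO 21 nearest to the WT range (log2 FC -0.89 ± 0.21, adjusted p = 0.00389). Wee1 (chr7:117265864-117285626), the kinase that holds back entry into mitosis, had 5.19, 2.79, 2.8 and 2.43 CPM in KO mice, against 12.4, 9.38, 10.7 and 9.34 CPM in WT mice. KO 18 was set apart from the other 3 KO mice, towards the WT range (log2 FC -1.66 ± 0.34, adjusted p = 0.00087). Usp2 overlaps Rnf26 and Tspan4 overlaps Chid1 on mm9.

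For all 21 of the clock genes reported, the KO mean at ZT12 lay within the span of the WT means over the 6 times. Per1, Per2, Hlf, Bhlhe40, Nampt, Usp2 and Tspan4 had their highest WT mean at ZT12, and Npas2 its lowest, 0.0678 CPM, against a highest WT mean of 14.8 CPM at ZT0 and a KO mean of 11.3 CPM at ZT12. Whether the KO minus WT difference at ZT12 differed from the mean difference at the other 5 times was tested in the same fit, and 1271 of 14836 genes passed (8.57%), 730 with a more positive and 541 with a more negative difference at ZT12. Of the 21 clock genes, 15 passed. The tested quantity, the log2 difference at ZT12 less the mean of the other times, was 6.5 ± 1.02, adjusted p = 3.55e-05 for Npas2, -4.25 ± 0.85, adjusted p = 0.000947 for Gm129, -3.85 ± 0.91, adjusted p = 0.00497 for Dbp, -2.97 ± 0.51, adjusted p = 0.000147 for Per3 and 1.71 ± 0.54, adjusted p = 0.0384 for Arntl (± SE). It was negative for all 13 E-box targets that passed. Without KO 20 and 21, 693 genes passed this test.

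**Figure D3:**
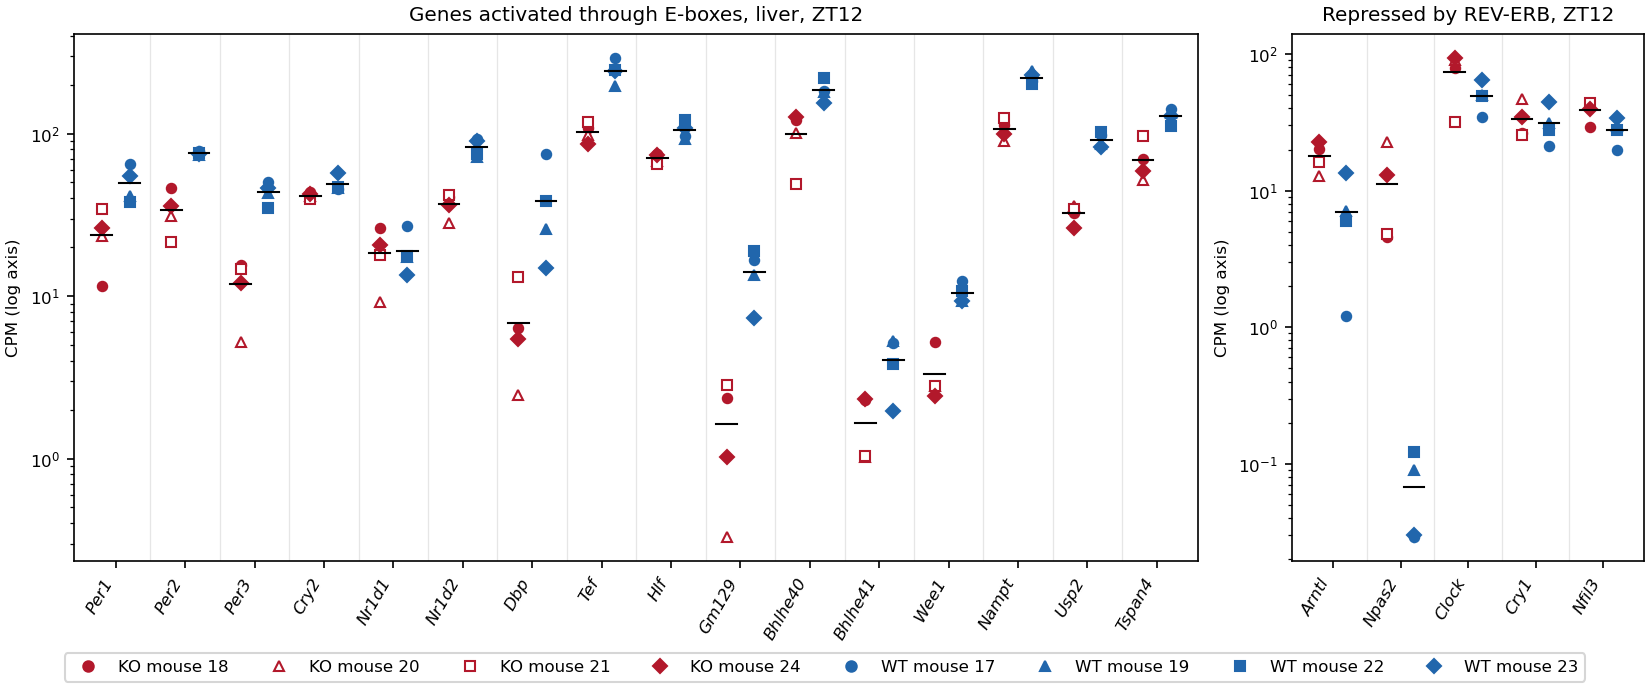
CPM (log axis) of the clock genes in each of the 8 mice at ZT12, KO mice in the left column and WT mice in the right column of each gene, 1 marker per mouse and a black line at the mean. Gm129, Dbp and Per3 lie lower in all KO mice than in all WT mice, Npas2 lies higher, and Nr1d1 and Cry1 overlap.

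Among genes outside the clock lists, the 12 largest non-overlapping rises of called genes with at least 5 CPM ranged from a log2 fold change of 2.0 to 6.8. Of these, 11 also passed without KO 20 and 21, and 11 passed in each of the 8 fits that left out 1 mouse. The largest was Sult1e1 (chr5:88004993-88020636), the sulfotransferase that inactivates estrogens. It had 2.33, 130.3, 4.09 and 11.5 CPM in KO mice, against 0, 0.596, 0.337 and 0.391 CPM in WT mice. KO 20 was far above every other mouse, and the remaining KO mice were still above all WT mice (log2 FC 6.8 ± 1.0, adjusted p = 1.31e-05). Leaving out KO 20 and 21 gave a log2 FC of 4.38, adjusted p = 0.00105. Spon2 (chr5:33556167-33560887), which encodes a secreted matrix protein, had 11.7, 29.8, 8.09 and 13.9 CPM in KO mice, against 1.73, 1.28, 1.66 and 1.99 CPM in WT mice, and each KO mouse was above each WT mouse (log2 FC 3.25 ± 0.41, adjusted p = 1.20e-06). Loxl4 (chr19:42668472-42687303), a lysyl oxidase of the extracellular matrix, had 8.4, 29.7, 7.02 and 18.9 CPM in KO mice, against 1.19, 1.52, 2.02 and 2.68 CPM in WT mice, again highest in KO 20 (log2 FC 3.11 ± 0.57, adjusted p = 0.000247). Cyp2c55 (chr19:39081509-39117183), a cytochrome P450, had 19.5, 79.6, 14 and 35 CPM in KO mice, against 3.87, 3.37, 7.64 and 4.61 CPM in WT mice (log2 FC 2.93 ± 0.49, adjusted p = 7.85e-05). These 4 genes share the same order of KO mice at the top, KO 20 and then KO 24.

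Lpl (chr8:71404390-71431347), the lipase that releases fatty acids from circulating lipoproteins and is normally low in adult liver, had 86.2, 402, 116 and 146 CPM in KO mice, against 23.4, 35.2, 19.3 and 59 CPM in WT mice. KO 20 stood highest, and no WT mouse reached the lowest KO mouse (log2 FC 2.45 ± 0.39, adjusted p = 3.79e-05). Gas7 (chr11:67268939-67502492), a cytoskeletal protein, had 30.1, 37.2, 15.9 and 26.3 CPM in KO mice, against 5.29, 4.32, 4.82 and 6.38 CPM in WT mice, without a single outlying mouse (log2 FC 2.39 ± 0.34, adjusted p = 7.31e-06). Slc34a2 (chr5:53429321-53462903), a sodium-dependent phosphate transporter, had 357, 167, 199.6 and 248 CPM in KO mice, against 49.7, 93.8, 28.1 and 41 CPM in WT mice, with KO 18 highest and KO 20 lowest of the KO mice (log2 FC 2.19 ± 0.40, adjusted p = 0.000218). Greb1 (chr12:16677421-16807692), known as an estrogen-regulated gene in human breast cancer cells, had 8.67, 2.2, 4.12 and 5.33 CPM in KO mice, against 0.549, 1.64, 1.07 and 0.602 CPM in WT mice and was likewise lowest in KO 20 among KO mice (log2 FC 2.39 ± 0.52, adjusted p = 0.00176). For Gas7, Slc34a2 and Greb1 the log2 fold change was somewhat larger without KO 20 and 21, at 2.44, 2.51 and 2.85.

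Gstm3 (chr3:107745251-107772201), a glutathione transferase of the mu class, had 203, 498, 185 and 173 CPM in KO mice, against 56.8, 54.9, 71 and 33.8 CPM in WT mice, and KO 20 was far above the other KO mice (log2 FC 2.29 ± 0.41, adjusted p = 0.000169). Ly6a (chr15:74825308-74828064), a surface protein also called Sca-1, had 37.5, 50.4, 97.1 and 56.1 CPM in KO mice, against 12.2, 25.1, 10.2 and 7.68 CPM in WT mice, highest in KO 21 (log2 FC 2.12 ± 0.36, adjusted p = 0.000101). Tubb2a (chr13:34166170-34169877), a beta-tubulin, had 143, 146, 98 and 126 CPM in KO mice, against 13.9, 27.8, 29.1 and 57.6 CPM in WT mice (log2 FC 2.0 ± 0.44, adjusted p = 0.00214). Srgap3 (chr6:112667965-112897260), a GTPase-activating protein that acts on Rac, had 2.78, 20.1, 3.87 and 3.51 CPM in KO mice, against 1.1, 2.11, 1.32 and 1.42 CPM in WT mice. Its rise rested on KO 20 (log2 FC 2.34 ± 0.55, adjusted p = 0.00378), and without that mouse and KO 21 it did not pass (log2 FC 1.08, adjusted p = 0.294). Gstm3 overlaps Gstm6 and has close paralogs, so that reads may be split among them.

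The 12 largest non-overlapping falls ranged from a log2 fold change of -2.83 to -1.62, and 11 of them are reported here. Of these 11, 8 were called without KO 20 and 21, and 10 in each fit that left out 1 mouse. Mfsd2a (chr4:122624093-122638431), a transporter of lysophosphatidylcholine, had 10.5, 14.2, 10.5 and 3.25 CPM in KO mice, against 51.5, 59, 76.1 and 87.1 CPM in WT mice. KO 24 was the lowest, and a wide gap separated the groups (log2 FC -2.83 ± 0.75, adjusted p = 0.011). Its log2 fold change without KO 20 and 21 was larger but did not pass (-3.32, adjusted p = 0.0548). Slc12a4 (chr8:108467490-108489974), a potassium-chloride cotransporter, had 16.7, 18.5, 20.5 and 17.4 CPM in KO mice, against 89, 63.5, 64.2 and 72.3 CPM in WT mice, with little spread in either group (log2 FC -1.99 ± 0.24, adjusted p = 4.00e-07). Col27a1 (chr4:62875038-62996025), a fibrillar collagen, had 12.3, 9.63, 13.6 and 15.9 CPM in KO mice, against 47.7, 52.7, 56.8 and 53.5 CPM in WT mice, equally tight (log2 FC -2.03 ± 0.31, adjusted p = 2.46e-05). Pcsk4 (chr10:79784028-79792243), a proprotein convertase, had 5.23, 5.6, 8.57 and 5.33 CPM in KO mice, against 36.6, 28.9, 27.5 and 16.6 CPM in WT mice (log2 FC -2.15 ± 0.29, adjusted p = 4.02e-06). In these 3 genes the fall passed with and without KO 20 and 21.

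Several falls were in enzymes of liver metabolism. Lpin1 (chr12:16542475-16596576), the phosphatidate phosphatase of triglyceride synthesis, had 41.4, 165, 49.7 and 53 CPM in KO mice, against 223, 338, 268 and 188 CPM in WT mice. KO 20 was close to the lowest WT mouse and the other 3 KO mice were far below it (log2 FC -1.72 ± 0.43, adjusted p = 0.00721), so that the log2 fold change without KO 20 and 21 was -2.43, adjusted p = 0.00514. Agxt2l1 (chr3:130320366-130338668), which breaks down phosphoethanolamine, had 69.1, 86.2, 66.5 and 88.1 CPM in KO mice, against 177, 224, 268 and 405 CPM in WT mice (log2 FC -1.79 ± 0.40, adjusted p = 0.00229). Upp2 (chr2:58419709-58645382), a uridine phosphorylase, had 315, 156, 354 and 239 CPM in KO mice, against 719.8, 755, 789 and 997 CPM in WT mice (log2 FC -1.62 ± 0.32, adjusted p = 0.000822). Cyp2a5 (chr7:27620324-27628567), the coumarin hydroxylase of mouse liver, had 652, 434, 759.9 and 321 CPM in KO mice, against 1511, 2128, 1965 and 1246 CPM in WT mice, with KO 24 and KO 20 lowest (log2 FC -1.66 ± 0.31, adjusted p = 0.000306). Each of these 4 enzymes was lower in all KO mice than in all WT mice. Cyp2a5 has a near-identical paralog in Cyp2a4, with which its reads may be shared.

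Ccrn4l (chr3:51028369-51055566), which encodes the rhythmic phosphatase nocturnin, had 28.7, 13.3, 23.3 and 35.4 CPM in KO mice, against 78, 56.9, 79.2 and 113 CPM in WT mice (log2 FC -1.7 ± 0.41, adjusted p = 0.00458). Hsd17b6 (chr10:127427997-127437734), a steroid and retinol oxidoreductase, had 9.91, 17.6, 9.67 and 11.4 CPM in KO mice, against 58.5, 23.9, 26.8 and 116 CPM in WT mice, with WT 23 far above the other controls (log2 FC -2.21 ± 0.61, adjusted p = 0.0141). The call for Hsd17b6 was lost without WT 23. Tmc7 (chr7:125679357-125728250), a transmembrane channel-like protein, had 1.09, 0.983, 0.806 and 1.08 CPM in KO mice, against 3.5, 3.87, 6.35 and 7.53 CPM in WT mice (log2 FC -2.42 ± 0.37, adjusted p = 2.42e-05). Without KO 20 and 21, neither Ccrn4l (log2 FC -1.35, adjusted p = 0.117) nor Hsd17b6 (log2 FC -2.4, adjusted p = 0.0823) passed.

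**Figure D4:**
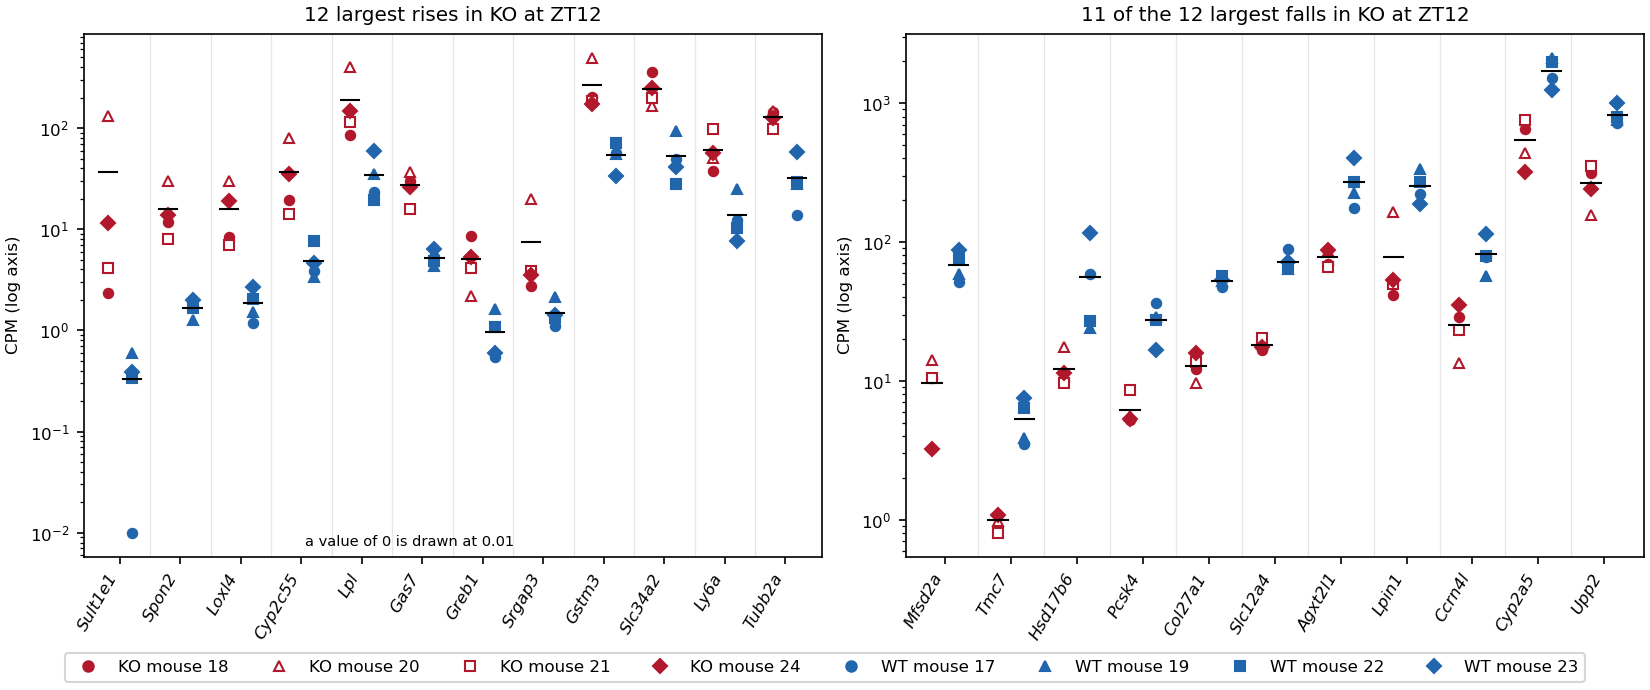
CPM (log axis) in each of the 8 mice for the 12 largest non-overlapping rises and 11 of the 12 largest non-overlapping falls outside the clock lists, KO mice left and WT mice right for each gene, 1 marker per mouse, a black line at the mean, a value of 0 drawn at 0.01. KO 20 is the highest mouse for Sult1e1, Spon2, Loxl4, Cyp2c55, Lpl, Gas7, Srgap3, Gstm3 and Tubb2a, and within every gene the genotypes do not overlap.

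Of 26 further genes known as rhythmic outputs of the liver clock, 8 rose and 7 fell (median log2 fold change -0.10). Por, the electron donor of all microsomal P450 enzymes, had 418, 286, 471 and 299 CPM in KO mice, against 1007, 1008, 893 and 817 CPM in WT mice (log2 FC -1.34 ± 0.23, adjusted p = 0.000101). Fkbp5, a glucocorticoid receptor co-chaperone, had 53.3, 66.7, 81 and 56.7 CPM in KO mice, against 124, 191, 183 and 151 CPM in WT mice (log2 FC -1.33 ± 0.23, adjusted p = 0.000114). Avpr1a, the hepatic vasopressin receptor, had 45.7, 82.2, 43.3 and 55.6 CPM in KO mice, against 16.2, 16.9, 19.5 and 27.3 CPM in WT mice and was highest in KO 20 (log2 FC 1.5 ± 0.25, adjusted p = 8.74e-05). Marveld1, a membrane protein, had 59.7, 51.7, 62 and 54.4 CPM in KO mice, against 109, 80.9, 93.2 and 104 CPM in WT mice (log2 FC -0.76 ± 0.13, adjusted p = 7.58e-05). None of the 4 overlapped between genotypes, and all 4 passed without KO 20 and 21, where 4 of the 26 rose and 6 fell. Among other clock components, 1 of 11 rose and 1 fell: Tardbp, an RNA-binding protein, had 97.5, 112, 94.6 and 113 CPM in KO mice, against 64.5, 74.6, 63 and 84.2 CPM in WT mice (log2 FC 0.54 ± 0.10, adjusted p = 0.000147), and Timeless had a log2 fold change of -0.63 ± 0.20, adjusted p = 0.0315 (± SE). Tardbp passed without KO 20 and 21 and Timeless did not. Tardbp overlaps Masp2, which averaged 5570 counts per library against 3590 for Tardbp, so that its value is uncertain.

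Of 31 genes of fatty acid and triglyceride synthesis, 8 fell and 2 rose (median log2 fold change -0.35). Fads2, a desaturase of polyunsaturated fatty acids, had 256, 151, 134 and 184 CPM in KO mice, against 344, 304, 351 and 484 CPM in WT mice, with KO 21 and KO 20 lowest (log2 FC -1.03 ± 0.16, adjusted p = 2.42e-05). Lpin2, a relative of Lpin1, had 139, 149.8, 97.2 and 155 CPM in KO mice, against 222, 210.1, 254 and 354 CPM in WT mice (log2 FC -0.94 ± 0.23, adjusted p = 0.00493). Cidec, which enlarges lipid droplets, had 0.846, 0.819, 0.29 and 0.498 CPM in KO mice, against 1.59, 2.06, 4.91 and 0.482 CPM in WT mice, where WT 23 lay inside the KO range (log2 FC -1.87 ± 0.38, adjusted p = 0.000978). Per-mouse medians of the list are given relative to the median WT mouse, which here and below stands for each gene's median over the 4 WT mice. They were 0.04, -0.57, -0.65 and -0.27 in KO mice 18, 20, 21 and 24, so that KO 20 and 21 were furthest down. Without these mice the median was -0.18, with 4 lower and 1 higher.

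In fatty acid oxidation and PPARA targets, 3 of 36 fell and 2 rose (median -0.07), a share near the 11.7% called among all genes tested, and without KO 20 and 21 1 fell and 1 rose. Cpt1a, which admits fatty acids to mitochondria, had 325, 398, 255 and 328 CPM in KO mice, against 534, 571, 506 and 501 CPM in WT mice (log2 FC -0.69 ± 0.13, adjusted p = 0.000334). Ppara itself, the nuclear receptor that induces these genes, had 117, 69.7, 31.5 and 115 CPM in KO mice, against 161, 135, 184 and 159 CPM in WT mice, lowest in KO 21 (log2 FC -0.94 ± 0.23, adjusted p = 0.00529), and did not pass without KO 20 and 21 (log2 FC -0.46, adjusted p = 0.217). Plin2, a lipid droplet coat protein, had 416, 416, 327 and 372 CPM in KO mice, against 260.2, 254, 342 and 221 CPM in WT mice (log2 FC 0.51 ± 0.15, adjusted p = 0.0246). Pdk4, an inhibitor of pyruvate oxidation, had 18.7, 8.19, 8.83 and 23.8 CPM in KO mice, against 3.64, 7.03, 8.62 and 8.97 CPM in WT mice, where KO 20 and 21 lay inside the WT range (log2 FC 1.08 ± 0.33, adjusted p = 0.0254). In lipoprotein metabolism 3 of 28 rose and 3 fell, and without KO 20 and 21 1 rose and 2 fell. Besides Lpl, hepatic lipase Lipc was higher (log2 FC 0.57 ± 0.14, adjusted p = 0.00518) and endothelial lipase Lipg lower (log2 FC -1.6 ± 0.32, adjusted p = 0.000827).

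Of 25 bile acid genes, 6 rose and none fell (median log2 fold change 0.12). Hsd3b7, an early enzyme of bile acid synthesis, had 582, 792, 626 and 645 CPM in KO mice, against 314, 247, 348 and 262 CPM in WT mice. The groups were tight and clearly apart (log2 FC 1.18 ± 0.14, adjusted p = 3.48e-07). Abcb11, the pump that exports bile salts into bile, had 724, 804, 497 and 687 CPM in KO mice, against 436, 319, 364 and 413 CPM in WT mice, with no overlap (log2 FC 0.82 ± 0.13, adjusted p = 3.34e-05). Acox2, a peroxisomal oxidase of bile acid side chains, had 254, 347, 231 and 237 CPM in KO mice, against 128, 164, 215 and 198 CPM in WT mice (log2 FC 0.60 ± 0.16, adjusted p = 0.0102). Akr1c6, a ketosteroid reductase, had 1394, 1814, 1854 and 1697 CPM in KO mice, against 1248, 1175, 1432 and 1098 CPM in WT mice, with KO 18 inside the WT range (log2 FC 0.45 ± 0.12, adjusted p = 0.00877). Hsd3b7 and Abcb11 passed without KO 20 and 21 and in the fit on 8 libraries, and the other 4 passed in neither.

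Cholesterol synthesis and uptake gave no call in 24 genes (median log2 fold change 0.28). Its members were high in a single mouse, KO 18, where the list's median was 0.92 above the median WT mouse, against -0.42, -0.04 and -0.31 in KO 20, 21 and 24 and -0.50 to 0.14 in WT mice. Sqle, squalene epoxidase, had 359, 139.7, 158 and 140.0 CPM in KO mice, against 178, 279, 209.6 and 91.6 CPM in WT mice. KO 18 was above every WT mouse, the other 3 KO mice lay inside the WT range, and Sqle was chosen after its values were seen. A single gene of the list passed, as higher, without KO 20 and 21.

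Of 37 genes of drug and toxicant metabolism, 6 rose and 6 fell (median log2 fold change 0.14). All 6 that rose were cytochromes P450 of the 2C family, and among those that fell were Por, Cyp2a5 and Gstt2, a theta class glutathione transferase with 51, 34.1, 49.2 and 32.3 CPM in KO mice, against 94.6, 98.4, 74.2 and 63.1 CPM in WT mice (log2 FC -0.99 ± 0.19, adjusted p = 0.000657). Of the 12, 4 of the higher and 5 of the lower genes passed without KO 20 and 21. Known targets of the oxidative stress factor NRF2 rose in 7 of 28 cases and fell in none, with 3 rises without KO 20 and 21 (median 0.22 with all mice). Gstm2 had 196, 432, 247 and 174 CPM in KO mice, against 74.6, 84.2, 73.8 and 38.7 CPM in WT mice (log2 FC 1.95 ± 0.27, adjusted p = 6.33e-06), and Gstm6 had 119.9, 289, 144 and 143 CPM in KO mice, against 75.1, 66.4, 96.6 and 59.3 CPM in WT mice (log2 FC 1.23 ± 0.23, adjusted p = 0.000309). Both were highest in KO 20, and mu class transferases are 5 of the 7, so that shared reads between these paralogs can count the same rise more than once. Prdx1, a peroxiredoxin outside that family, had 1189.6, 1447, 1573 and 1118 CPM in KO mice, against 1018, 1065, 1099 and 984 CPM in WT mice (log2 FC 0.35 ± 0.09, adjusted p = 0.00666), and was not called without KO 21.

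Glucose and glycogen genes split, 3 of 34 higher and 3 lower (median log2 fold change -0.17). Gys2, liver glycogen synthase, had 106, 138, 105 and 109.9 CPM in KO mice, against 275, 314, 289 and 260.2 CPM in WT mice. All 4 KO mice were far below the 4 WT mice, and the KO mean was 0.404 of the WT mean (log2 FC -1.31 ± 0.14, adjusted p = 2.25e-07). Slc37a4, the glucose 6-phosphate transporter, had 151, 214, 192 and 146 CPM in KO mice, against 267, 321, 318 and 219 CPM in WT mice (log2 FC -0.68 ± 0.19, adjusted p = 0.0156). Pygl, liver glycogen phosphorylase, had 715, 746, 597 and 674 CPM in KO mice, against 487, 514, 596 and 431 CPM in WT mice (log2 FC 0.43 ± 0.12, adjusted p = 0.0138), and Gckr, the glucokinase regulator, had 144, 169.5, 165 and 142 CPM in KO mice, against 115, 109, 129.6 and 105 CPM in WT mice (log2 FC 0.44 ± 0.10, adjusted p = 0.00431). Thus the synthetic enzyme was lower and the phosphorylase higher in KO. Only Gys2 and Slc37a4 passed without KO 20 and 21, and Pygl and Gckr did not.

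In amino acid breakdown and the urea cycle, 3 of 35 rose and 7 fell, with 2 and 4 without KO 20 and 21 (median log2 fold change -0.13 with all mice). Cbs, the first enzyme of transsulfuration, had 726, 715, 617 and 636 CPM in KO mice, against 454, 328, 460.1 and 428 CPM in WT mice (log2 FC 0.69 ± 0.13, adjusted p = 0.000334). Kynu, kynureninase of tryptophan breakdown, had 239.6, 339, 190.1 and 264 CPM in KO mice, against 144, 158, 184 and 164 CPM in WT mice (log2 FC 0.67 ± 0.13, adjusted p = 0.000657), and Agxt, which detoxifies glyoxylate, had 291, 389, 330.5 and 289 CPM in KO mice, against 199, 179, 200.1 and 218 CPM in WT mice (log2 FC 0.71 ± 0.16, adjusted p = 0.00256). The 3 rises had no overlap. In NAD metabolism 1 of 20 rose and 3 fell, with 1 and 1 without KO 20 and 21 (median -0.11 with all mice). Beside the fall of Nampt stood the rise of Nt5e, an ectoenzyme that produces adenosine, with 139.7, 67.9, 92.8 and 82.4 CPM in KO mice, against 38.4, 36.1, 29.2 and 26.7 CPM in WT mice (log2 FC 1.55 ± 0.31, adjusted p = 0.00087). Nadk (-0.26 ± 0.08, adjusted p = 0.0301) and the low-abundance Nmnat2 (-1.2 ± 0.33, adjusted p = 0.0133) fell with overlap and did not pass without KO 20 and 21.

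Hepcidin and BMP signalling, which set iron uptake, had 1 of 25 genes higher and 5 lower, and 1 higher and 4 lower without KO 20 and 21 (median log2 fold change -0.18 with all mice). Bmp6, the ligand, had 5.5, 5.67, 5.48 and 4.54 CPM in KO mice, against 8.9, 10.1, 8.84 and 12.3 CPM in WT mice (log2 FC -0.92 ± 0.13, adjusted p = 9.09e-06). Smad9, a BMP-responsive signal transducer, had 3.93, 8.68, 6.15 and 2.99 CPM in KO mice, against 19.4, 14.7, 12.1 and 17.5 CPM in WT mice (log2 FC -1.55 ± 0.34, adjusted p = 0.00207), and the inhibitor Smad7 had 8.46, 7.37, 10.5 and 10.3 CPM in KO mice, against 14.3, 16.5, 15.3 and 21.9 CPM in WT mice (log2 FC -0.89 ± 0.23, adjusted p = 0.00796). Hfe2, the BMP co-receptor hemojuvelin, had 95.7, 91.5, 94.1 and 80.5 CPM in KO mice, against 52.8, 63.6, 69.6 and 61 CPM in WT mice and rose (log2 FC 0.55 ± 0.11, adjusted p = 0.00103). Bmp6 overlaps Txndc5, which averaged 8060 counts per library against 263 for Bmp6, so that its value is uncertain. Hamp, the hepcidin gene itself, was read after its dependence on KO 20 and 21 was seen, and had 135, 289, 629 and 25.8 CPM in KO mice, against 787, 761, 1098 and 895 CPM in WT mice. It missed the threshold with all mice (log2 FC -1.71 ± 0.62, adjusted p = 0.0621) and passed without the 2 mice (log2 FC -3.47, adjusted p = 0.00771).

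Glucocorticoid receptor targets had 1 of 22 genes higher and 4 lower, and 1 higher and 3 lower without KO 20 and 21 (median log2 fold change -0.28 with all mice). Beyond Fkbp5, Lpin1 and Sult1e1, Tat, the tyrosine aminotransferase, had 2005, 727, 1282 and 2295 CPM in KO mice, against 1724, 2155, 3584 and 4141 CPM in WT mice, and KO 24 and KO 18 lay inside the WT range (log2 FC -0.88 ± 0.27, adjusted p = 0.0288). In the heat shock list 3 of 23 fell and none rose (median -0.04), a share near the 11.7% called among all genes tested. Hspa1b, an inducible HSP70, had 8.22, 7.21, 4.35 and 11.5 CPM in KO mice, against 15.4, 21.9, 24.3 and 31.6 CPM in WT mice (log2 FC -1.57 ± 0.40, adjusted p = 0.00875), its near-identical copy Hspa1a had a log2 fold change of -1.75 ± 0.43, adjusted p = 0.00647 at under 2 CPM, and Hspb1 had 5.26, 5.08, 8.7 and 4.57 CPM in KO mice, against 12.8, 9.09, 12.3 and 12.6 CPM in WT mice (log2 FC -0.99 ± 0.33, adjusted p = 0.0433). None of the 3 passed without KO 20 and 21. The unfolded protein response gave 1 rise, the chaperone Calr (0.51 ± 0.16, adjusted p = 0.0312), and 1 fall, Herpud1 (-0.79 ± 0.27, adjusted p = 0.0476), in 28 genes. Fosl2 was the only immediate early gene of 27 to pass (-0.55 ± 0.19, adjusted p = 0.0457), and acute phase proteins gave 2 rises in 30, Crp (0.39 ± 0.11, adjusted p = 0.0182) and Cp (0.57 ± 0.17, adjusted p = 0.0242; log2 fold changes ± SE throughout). No gene of the unfolded protein response, immediate early or acute phase lists passed without KO 20 and 21.

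Smaller lists gave few calls, all described by log2 fold change ± SE. The share called was below the 11.7% of all genes tested in the cell cycle, polyamine, and growth hormone and IGF lists, and in the unfolded protein response, immediate early and acute phase lists above. The zinc and manganese exporter Slc30a10 (1.18 ± 0.21, adjusted p = 0.000165) and the importer Slc39a8 (0.44 ± 0.10, adjusted p = 0.00287) rose among 14 metallothionein and zinc transport genes, and both passed without KO 20 and 21. In autophagy and lysosome, 3 of 30 rose, including Atg7 (0.61 ± 0.13, adjusted p = 0.00214) and Sqstm1 (0.37 ± 0.09, adjusted p = 0.00399), and 2 fell, the lysosomal channel Mcoln1 (-0.51 ± 0.08, adjusted p = 2.17e-05) and the mitophagy receptor Bnip3 (-0.48 ± 0.14, adjusted p = 0.0213). Among 35 cell cycle and p53 targets 2 rose and 2 fell. These were Cdkn1a, the inhibitor p21, with 23.9, 49.1, 19.2 and 32.4 CPM in KO mice, against 3.38, 9.29, 17.4 and 12.3 CPM in WT mice (log2 FC 1.56 ± 0.50, adjusted p = 0.0333), Plk1 (2.0 ± 0.63, adjusted p = 0.0305), Wee1 and Ccne1 (-0.93 ± 0.28, adjusted p = 0.023). Without KO 20 and 21, 2 autophagy and lysosome genes rose and 3 fell, and 1 cell cycle gene rose and 1 fell. Azin1 was the only polyamine gene of 14 to pass (-0.50 ± 0.14, adjusted p = 0.0184), and Igfbp4 (-0.31 ± 0.10, adjusted p = 0.0301) and Hnf4a (-0.32 ± 0.11, adjusted p = 0.0436) fell among 19 genes of the growth hormone and IGF axis. No polyamine gene passed without KO 20 and 21, and 1 gene of that axis rose and 1 fell there.

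Ribosomal and proteasome genes moved with KO 21 and, to a lesser degree, KO 20. Of 50 cytosolic ribosomal protein genes, 19 rose and none fell (median log2 fold change 0.31), but without KO 20 and 21 none passed and the median was 0.01. Leaving out 1 mouse at a time gave 0 to 39 rises. The list's median relative to the median WT mouse was 0.84 in KO 21 and 0.29 in KO 20, against 0.0646 in KO 18, -0.00104 in KO 24 and -0.03 to 0.11 in WT mice. Rps20 had 202, 224, 372 and 208 CPM in KO mice, against 183, 199, 176 and 194 CPM in WT mice (log2 FC 0.42 ± 0.11, adjusted p = 0.0116), with KO 21 alone far above, and Rpl4 had 810.1, 931, 1074 and 769 CPM in KO mice, against 635, 748, 669.8 and 737 CPM in WT mice (log2 FC 0.36 ± 0.09, adjusted p = 0.00693). The median transcript length of the list was 650.5 bases, against 1430 bases over all genes tested, and KO 21 was also the library whose counts shifted towards short transcripts. With each library's length slope as a covariate, none of the 50 genes passed (median 0.05). The slope was taken from the same counts and was by far the lowest in KO 21. A fit with it is therefore not separate from leaving out KO 21, and a part of transcript length was not tested. Proteasome subunits rose in 12 of 33 cases and fell in none (median 0.20), and 1 passed without KO 20 and 21 (median 0.04) and 4 with the length slope as a covariate (median 0.04). Psmd11, a subunit of the proteasome's regulatory particle, had 125, 163, 114 and 117 CPM in KO mice, against 90.0, 90.9, 93.1 and 89.6 CPM in WT mice (log2 FC 0.51 ± 0.10, adjusted p = 0.000491), without overlap and highest in KO 20. Psma5, of the catalytic core, had 67, 76.2, 96.6 and 64.9 CPM in KO mice, against 59.5, 61.1, 59 and 51.9 CPM in WT mice, highest in KO 21 (log2 FC 0.40 ± 0.09, adjusted p = 0.00171). Unlike ribosomal proteins, of which none passed the test against the other times, 11 of the 33 proteasome genes had a more positive difference at ZT12 than at the other 5 times. Among all 14836 genes tested 730 had such a difference. The proteasome list's median relative to the median WT mouse was 0.10, 0.35, 0.48 and -0.01 in KO mice 18, 20, 21 and 24. The count of 11 is not given here without KO 20 and 21. Nuclear genes of oxidative phosphorylation gave no call in 43, with a median of 0.36 in KO 21 relative to the median WT mouse, and 3 passed as lower without KO 20 and 21.

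**Figure D5:**
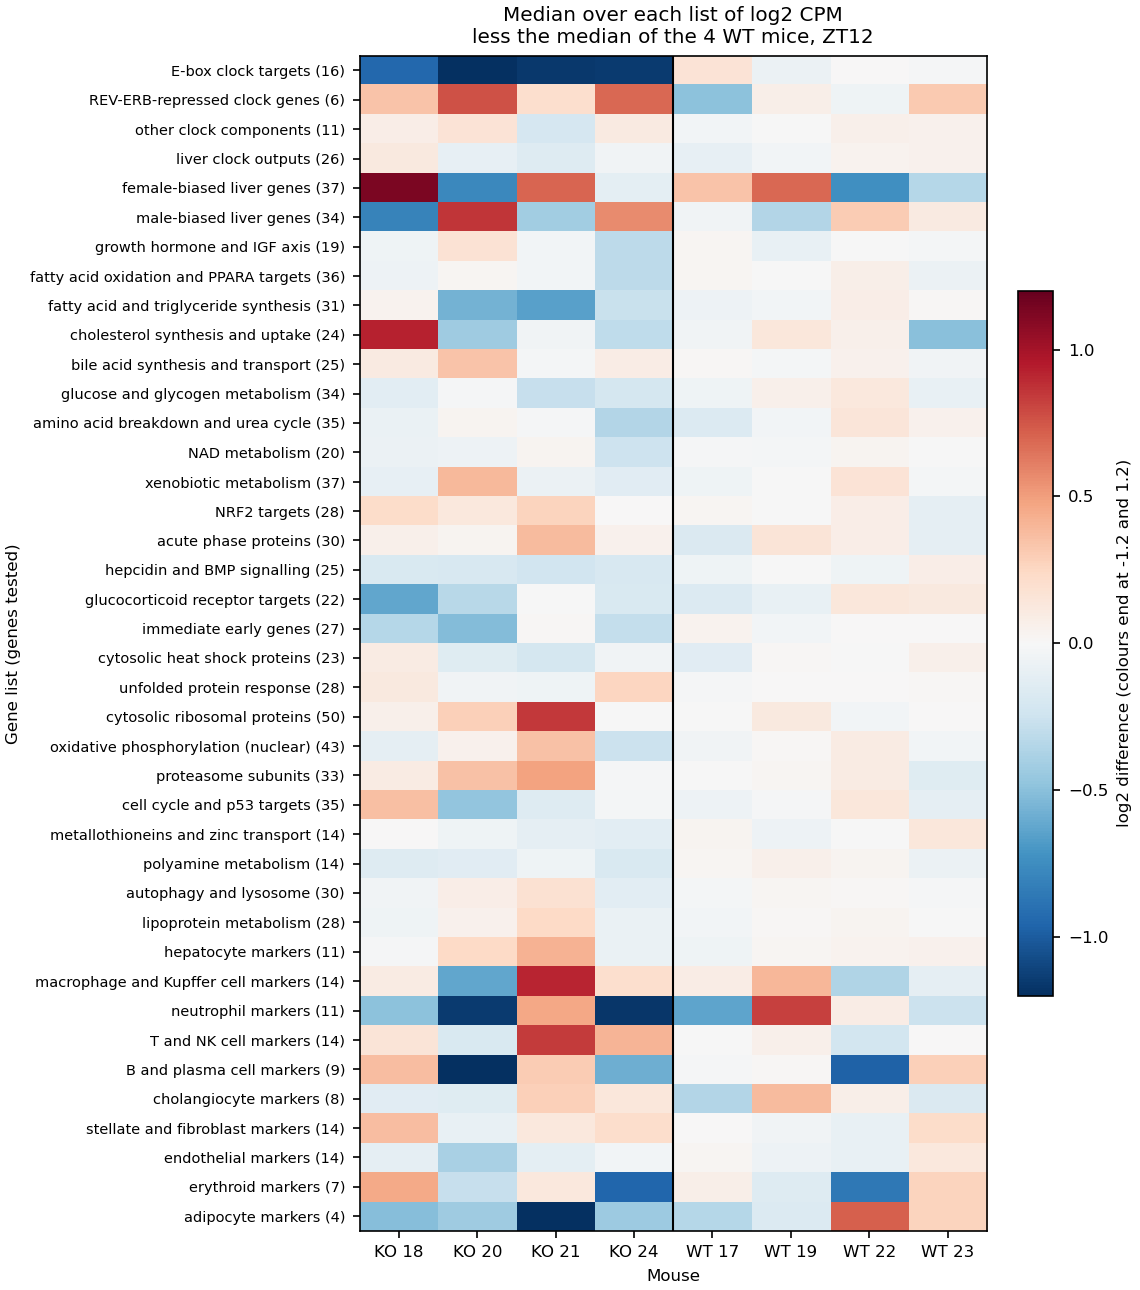
For each gene list (rows, with the number of genes tested) and each of the 8 mice (columns, KO left of the line and WT right), the median over the list of log2 CPM less the median of the 4 WT mice, as colour. E-box targets are low in all 4 KO mice, ribosomal proteins are high in KO 21, cholesterol synthesis is high in KO 18, and female-biased and male-biased genes move in opposite directions within both genotypes.

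The mice of each genotype also differed among themselves in genes that are expressed at different levels in male and female mouse liver. Relative to the median WT mouse, the median of 37 female-biased genes was 1.13, -0.78, 0.70 and -0.12 in KO mice 18, 20, 21 and 24, and 0.34, 0.69, -0.74 and -0.34 in WT mice 17, 19, 22 and 23. The median of 34 male-biased genes was -0.80, 0.86, -0.42 and 0.57 in the KO mice and -0.04, -0.35, 0.31 and 0.10 in the WT mice. KO 18, KO 21 and WT 19 were thus high for female-biased and low for male-biased genes, and KO 20 and WT 22 the reverse. Of the 37 female-biased genes 5 rose and 1 fell, and of the 34 male-biased 3 rose and 1 fell. Among all genes tested 6.59% rose and 5.12% fell, 11.7% in either direction. Cyp3a16, a female-biased P450, had 94.2, 0.197, 88 and 1.02 CPM in KO mice, against 0.578, 2.41, 0.092 and 0.211 CPM in WT mice. Its values fell into a high pair, KO 18 and KO 21, and 6 low mice, with KO 20 and 24 inside the WT range (log2 FC 5.79 ± 1.49, adjusted p = 0.00878). Hsd3b5, a male-biased steroid reductase, had 3.65, 212, 12.7 and 62.4 CPM in KO mice, against 5.69, 0.238, 2.33 and 2.65 CPM in WT mice, high in KO 20 and 24, while KO 18 lay inside the WT range (log2 FC 4.73 ± 1.33, adjusted p = 0.0154). In both genes the 4 KO mice, of the same sex, age range and treatment, differed from each other by more than the WT mice did.

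Further sex-biased genes repeated this split. Cyp3a41b had 29.6, 0.0655, 15.9 and 1.26 CPM in KO mice, against 0.116, 1.43, 0 and 0 CPM in WT mice (log2 FC 4.9 ± 1.33, adjusted p = 0.0125), in the same high pair as Cyp3a16, its close paralog. Sult2a1, a female-biased sulfotransferase of bile acids and steroids, had 18.9, 0.393, 31.4 and 2.17 CPM in KO mice, against 0.607, 4.17, 0.153 and 0.452 CPM in WT mice (log2 FC 3.29 ± 1.11, adjusted p = 0.045). Elovl3, a male-biased and rhythmic fatty acid elongase, had 8.37, 411, 6.48 and 176 CPM in KO mice, against 3.84, 3.66, 30.7 and 5.75 CPM in WT mice, high in KO 20 and 24, with WT 22 above KO 18 and 21 (log2 FC 3.78 ± 1.16, adjusted p = 0.0271). Moxd1, a male-biased monooxygenase-like gene, had 0.0302, 10.1, 0.0967 and 1.84 CPM in KO mice, against 0, 0.0596, 0 and 0.0301 CPM in WT mice, where the WT values rest on 3 counts in all and KO 20 alone holds 308 of 375 KO counts. In contrast, Cyp2c40 (327, 473, 312 and 326 CPM in KO mice, against 217, 210.5, 75.6 and 118 CPM in WT mice; log2 FC 1.21 ± 0.33, adjusted p = 0.0139), female-biased, and Mme (69.8, 21.8, 27.7 and 52.9 CPM in KO mice, against 99.3, 88.3, 103 and 105 CPM in WT mice; log2 FC -1.2 ± 0.28, adjusted p = 0.00418), male-biased, did not overlap between genotypes. Nor did Fmo2, a female-biased monooxygenase, with 19, 11.7, 27.5 and 16 CPM in KO mice, against 40.6, 68.9, 35.2 and 46.2 CPM in WT mice (log2 FC -1.36 ± 0.28, adjusted p = 0.000978). Of the 10 calls in the sex-biased lists, 3 passed without KO 20 and 21: Cyp3a16, Cyp3a41b and Fmo2.

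KO 20 was set apart by 131 genes over 2-fold above and 189 over 2-fold below the median of the other 7 mice. The 5 genes furthest above the median of the other 7 mice, among genes of at least 5 CPM, were Sult1e1 (log2 7.64 above), Npas2 (6.97), Elovl3 (5.97), Hsd3b5 (5.84) and Spon2 (3.87). The 5 furthest below were Cyp2a4 (-5.45), Cux2 (-5.04), Cyp2b13 (-4.72), Mup15 (-4.60) and Nipal1 (-4.40). Cyp2a4, a female-biased steroid hydroxylase, had 46, 1.77, 79.5 and 20.3 CPM in KO mice, against 197, 258, 79.9 and 262 CPM in WT mice, and Cux2, a female-biased transcription factor, had 22.7, 0.295, 12.1 and 1.58 CPM in KO mice, against 11.6, 28.3, 1.53 and 7.95 CPM in WT mice. Cux2 spanned a wide range in both genotypes, with full overlap. Cyp2b13 had 34.4, 0.524, 15.3 and 7.06 CPM in KO mice, against 16.5, 16.3, 5.83 and 2.2 CPM in WT mice, and Nipal1, a magnesium transporter, had 20.0, 0.754, 17.1 and 13.5 CPM in KO mice, against 5.58, 17.9, 1.99 and 29.2 CPM in WT mice. Of these 5 low genes none was called between the genotypes. KO 20 was also housed alone, as was WT 19, and a part of housing in these values was not tested.

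Against the median of the other 7 mice, KO 21 was furthest above in Cyp3a16 (log2 7.11), Cyp3a41b (6.51), Sult2a1 (5.56), Mup17 (4.84) and Npas2 (4.75). It was the highest mouse only for Sult2a1. KO 18 was higher in Cyp3a16 and Cyp3a41b, WT 22 in Mup17, and KO 20 and 24 in Npas2, which was above all WT mice in every KO mouse. KO 21 was furthest below that median in Cyp4a12a (-4.69), Lcor (-3.43), Zfp871 (-3.35), Gm9581 (-3.19) and Cbl (-3.12). Lcor, a nuclear receptor corepressor, had 11.3, 9.77, 0.999 and 14.2 CPM in KO mice, against 11.4, 11.4, 11.2 and 15.8 CPM in WT mice. Zfp871, a zinc finger protein, had 14.3, 15.5, 1.71 and 23.3 CPM in KO mice, against 18.1, 16.3, 17.9 and 33.5 CPM in WT mice, and Cbl, a ubiquitin ligase, had 7.4, 6.42, 0.967 and 11.5 CPM in KO mice, against 8.87, 9.2, 8.25 and 10.8 CPM in WT mice. In each, KO 21 alone was far below every other mouse, and the other 3 KO mice lay within or near the WT range. Cyp4a12a, a male-biased fatty acid hydroxylase, had 1.42, 27, 0.516 and 48.6 CPM in KO mice, against 14, 6.55, 35.8 and 14.8 CPM in WT mice, low in KO 18 as well. The Mup17 gene of the major urinary proteins had 1.51, 1.7, 70.0 and 37.5 CPM in KO mice, against 23.1, 2.38, 339 and 1.57 CPM in WT mice, where WT 22 was the highest and reads of this multigene family may be shared. Macrophage and Kupffer cell markers were also high in KO 21. Their 14 genes summed to 1640, 994, 2994 and 1815 CPM in KO mice, against 1617, 2004, 1190 and 1415 CPM in WT mice, and 1192 to 2379 CPM in KO and 1249 to 2304 CPM in WT mice of the other times. KO 21 was thus the highest and KO 20 the lowest of all 48 libraries.

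None of the 14 macrophage markers passed between genotypes, and all 14 were detected in the 8 mice. In a bulk sample, more cells of a type and more RNA per cell cannot be told apart. Endothelial markers fell in 4 of 14 cases (median log2 fold change -0.22), among them Stab1 with 59.9, 45.8, 54.9 and 66.7 CPM in KO mice, against 82.9, 69.2, 68.6 and 92.5 CPM in WT mice (log2 FC -0.46 ± 0.11, adjusted p = 0.00418) and Kdr with 70.9, 51.4, 55.7 and 81.4 CPM in KO mice, against 87.7, 73.4, 80.2 and 90.7 CPM in WT mice (log2 FC -0.36 ± 0.11, adjusted p = 0.0315). None of the 4 passed without KO 20 and 21. Gpr182 (-0.35 ± 0.11, adjusted p = 0.033) and Fcgr2b (-0.33 ± 0.11, adjusted p = 0.0473) were the other 2. The summed CPM of the 14 genes was 569 to 753 in KO mice and 716 to 854 in WT mice. Hepatocyte markers were abundant in every library, with summed CPM of 42635 to 55075 in KO mice and 41334 to 47423 in WT mice, so that the markers of the labelled tissue were present. Of their 11 genes tested, 1 rose, Ahsg (0.37 ± 0.12, adjusted p = 0.0376), and 2 fell, Cps1 (-0.51 ± 0.17, adjusted p = 0.0383) and Hnf4a, and none passed without KO 20 and 21.

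Of 10 exocrine pancreas genes, 7 were at 0 in all 8 mice and only 2 were tested. Both rose: Cela1 had 37.6, 39.4, 62.2 and 44.8 CPM in KO mice, against 30.1, 19.4, 30.5 and 15.4 CPM in WT mice (log2 FC 0.95 ± 0.24, adjusted p = 0.00783), and Cela2a had 0.513, 0.59, 0.516 and 0.556 CPM in KO mice, against 0.0867, 0.0894, 0.399 and 0.211 CPM in WT mice (log2 FC 1.46 ± 0.40, adjusted p = 0.0127), which overlaps the far more abundant Casp9. Among 4 adipocyte markers tested, Fabp4 rose, with 13.9, 14.6, 21.5 and 16.9 CPM in KO mice, against 6.97, 10.6, 9.17 and 12.6 CPM in WT mice (log2 FC 0.77 ± 0.15, adjusted p = 0.000426), and Plin4, with 3.9, 4.39, 1.61 and 3.57 CPM in KO mice, against 5.72, 5.18, 14.4 and 8.4 CPM in WT mice, fell (log2 FC -1.32 ± 0.35, adjusted p = 0.0113). Fabp4 passed without KO 20 and 21, and Plin4 and both pancreas genes did not. Plin4 overlaps Hdgfrp2, which averaged 1000 counts per library against 153 for Plin4. No gene passed, with or without these mice, in the neutrophil, T and NK cell, B and plasma cell, cholangiocyte, stellate, erythroid or muscle lists. T and NK cell markers summed to 19.3 CPM in KO 21, the highest of the 8 mice, against 9.9 to 17 CPM in the other KO mice and 10.6 to 12.7 CPM in WT mice. At the other times the sum was 7.38 to 17.5 CPM in KO mice and 10.3 to 23.7 CPM in WT mice. Of the 14 genes, 10 had a median below 1 CPM over the 8 mice. The part of other cell types in the changes above was not tested.

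The largest calls lost without KO 20 and 21 mostly kept a large fold change there. Among genes averaging at least 5 CPM in the higher genotype, of the 6 largest rises lost, Hsd3b5 kept a log2 fold change of 3.6, adjusted p = 0.12, Elovl3 3.07, adjusted p = 0.125, Sult2a1 2.96, adjusted p = 0.136 and Cdkn1a 1.41, adjusted p = 0.155. Serpina12, a serine protease inhibitor called vaspin, had 19.2, 192, 135 and 96.7 CPM in KO mice, against 23.1, 26.7, 55.9 and 11.3 CPM in WT mice, and its log2 fold change of 1.92 became 0.99, adjusted p = 0.427. Moxd1, below 5 CPM in both genotypes, also lost its call. Srgap3 and Serpina12 lost the largest part of their log2 fold change among these 6. Of the 6 largest falls lost, Per3, Dbp, Mfsd2a, Hsd17b6 and Ccrn4l stayed between -3.32 and -1.35.

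Other genes passed only without the 2 mice. Tspo, a mitochondrial outer membrane protein, had 34.4, 45.1, 63.5 and 38.1 CPM in KO mice, against 56.5, 50.6, 56.9 and 52.2 CPM in WT mice. KO 21 was the highest of all mice while KO 18 and 24 were the lowest, and the log2 fold change was -0.26 with all mice and -0.57, adjusted p = 0.00317 without KO 20 and 21. Wfdc2, which encodes the secreted protein HE4, had 1.84, 2.33, 7.51 and 1.64 CPM in KO mice, against 7.2, 4.65, 6.57 and 4.1 CPM in WT mice, with KO 21 likewise the highest and the other KO mice low (-0.76 with all mice and -1.69, adjusted p = 0.00453 without). Atp5sl, a mitochondrial protein, had 18.5, 27.1, 28.6 and 19.4 CPM in KO mice, against 31.6, 25, 28.4 and 30.0 CPM in WT mice (-0.30, and -0.60, adjusted p = 0.0033). Nes, the intermediate filament nestin, had 12, 2.06, 3.58 and 6.32 CPM in KO mice, against 4.6, 4.11, 3.47 and 4.19 CPM in WT mice, with KO 20 and 21 the lowest of the KO mice (0.55, and 1.16, adjusted p = 0.00462). Mns1 was near the detection limit at 53 counts in KO and 29 in WT mice.

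The genes whose difference at ZT12 departed most clearly from the other times were called with and without KO 20 and 21. For Hsd3b7 the log2 difference at ZT12 less the mean of the other 5 times was 1.33 ± 0.15, adjusted p = 3.59e-07, and for Slc12a4 it was -2.23 ± 0.26, adjusted p = 3.59e-07 (± SE). Aqp8, a water channel of bile formation, had 147, 106, 124 and 90.0 CPM in KO mice, against 35.3, 45.2, 42 and 29.9 CPM in WT mice (log2 FC 1.62 ± 0.23, adjusted p = 7.17e-06; difference from the other times 2.19 ± 0.25, adjusted p = 3.59e-07). S100a10, a calcium-binding family protein, had 170.0, 149, 185 and 149.8 CPM in KO mice, against 54.7, 80.4, 73.6 and 43.3 CPM in WT mice (log2 FC 1.38 ± 0.15, adjusted p = 2.25e-07; 1.43 ± 0.17, adjusted p = 3.81e-07). Dhrs3, a retinal reductase, had 126, 195, 178 and 149 CPM in KO mice, against 69.6, 74.4, 84.5 and 77.1 CPM in WT mice (log2 FC 1.08 ± 0.14, adjusted p = 1.28e-06; 1.29 ± 0.15, adjusted p = 3.81e-07). These 3 rises had both groups tight and clearly apart. Smagp, a small membrane protein of epithelia, had 31.6, 42.1, 42.9 and 35.4 CPM in KO mice, against 18.1, 15.1, 19.3 and 13.5 CPM in WT mice (log2 FC 1.2 ± 0.15, adjusted p = 1.28e-06; 1.42 ± 0.17, adjusted p = 3.81e-07). Slc16a12, a creatine transporter, fell, with 103, 83.1, 84.4 and 96.6 CPM in KO mice, against 171, 146, 160.1 and 176 CPM in WT mice (log2 FC -0.83 ± 0.14, adjusted p = 4.88e-05; -1.24 ± 0.15, adjusted p = 3.97e-07). Spon2 had a difference from the other times of 3.92 ± 0.44, adjusted p = 3.59e-07.

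Body weight differed in the same mice. KO mice weighed 25, 27, 31 and 27 g and WT mice 34, 31, 31 and 33 g, with means of 27.5 ± 2.52 g in KO and 32.25 ± 1.5 g in WT (SD, n = 4 each; difference -4.75 g, two-sided exact permutation p = 0.0857, where 0.0286 is the smallest possible). With body weight as a covariate, 1405 genes passed, 1265 of them shared with the 1737, so that 472 calls were lost. Within the 3 cages that held both genotypes, the KO minus WT difference had the same sign in all 3 for 896 of the 977 higher genes and for 719 of the 760 lower genes. These mice are among those that made the calls, so that this count is a description.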

How the data were processed

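Poly-A RNA from whole liver was sequenced from unstranded libraries (13 PCR cycles), per the labels' protocols, and read with STAR 2.4.0f1 and CASAVA on mm9, per the submitters' processing notes. The deposited table gives whole-number counts per gene. The gene models, the counter, the handling of multi-mapped reads and the step that brought all libraries to 33562272 to 34035644 counts are not given in the sources used here. Pooling of livers is not mentioned in the labels, and each library is taken as a separate mouse.

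All 48 libraries (12 groups of 4) entered 1 fit in edgeR 4.0.16 (R 4.3.3) with TMM scaling, filterByExpr at a minimum count of 10 (14836 of 23732 genes kept), and the quasi-likelihood test with 36 residual degrees of freedom; the contrast was KO minus WT at ZT12. Calls are at an adjusted p under 0.05 (Benjamini-Hochberg over all genes tested). Without adjustment 3994 genes had p under 0.05. Alternatives were DESeq2 1.42.0, limma 3.58.1 (voom with quality weights), other scalings and filters, body weight or transcript length slope (GENCODE M21 lengths, 97.1% of genes matched) as covariates, each mouse left out, KO 20 and 21 left out together, and the 8 libraries alone. The fit on 48 libraries was tried on simulated counts for this comparison, with 50 genes at each fold. It recovered 70% of genes changed 1.5-fold, 88% at 2-fold and 100% at 3-fold and 4-fold, and called 10 of 14636 unchanged genes. These shares hold for counts that vary as simulated, and KO mice at ZT12 mostly varied more than WT mice.

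Mouse numbers differ between the genotypes, so they do not pair mice. Cages pair 3 KO with 3 WT mice, but their deviations from the group means did not go together (correlation -0.000175, -0.0769 and 0.248 for KO 18 with WT 17, KO 21 with WT 22, and KO 24 with WT 23).

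The comparison and the gene lists were chosen with earlier results of these data known. The text names Arntl, all tested genes of the 2 clock lists (E-box targets, REV-ERB-repressed), the 12 largest non-overlapping rises and falls of at least 5 CPM, the 6 largest of each, also of at least 5 CPM, lost without KO 20 and 21, up to 4 calls of each other list by p, the 5 genes furthest above and below in KO 20 and in KO 21, the 8 with the smallest p against the other times, and the 5 with the smallest p among new calls without KO 20 and 21. Predicted genes were not named among rises and falls. A few genes that these rules name are not reported here, while fits and list counts include them.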

Additional observations from a re-analysis of the deposited data

Results flagged for a closer look

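In 23 of 302 sets of 4 mice examined (named genes, each genotype), 1 mouse lay far from the other 3 of its own group; chance gives about 1 in 20 for a gene chosen without regard to its spread. Some of the named genes were chosen because KO 20 or KO 21 lay far from the other mice. Most others were chosen by their difference between the genotypes or by its dependence on these 2 mice. The 2 shares are thus not comparable. KO 20 was the mouse above its group for Sult1e1 (130 CPM), Srgap3 (20.1 CPM), Gstm3 (498 CPM), Gstm6 (289 CPM), Lpin1 (165 CPM), Cyp2c40 (473 CPM) and Gys2 (138 CPM). For Lpin1 and Gys2, which fell in KO, this put KO 20 nearest to the WT mice. KO 21 was above its group for Pcsk4 (8.57 CPM), Hspb1 (8.70 CPM), Rps20 (372 CPM) and Wfdc2 (7.51 CPM). KO 18 was above its group for Wee1 (5.19 CPM), and KO 24 below it for Bmp6 (4.54 CPM). Among WT mice, WT 22 was above its group for Elovl3 (30.7 CPM), Mup15 (160 CPM) and Mup17 (339 CPM), WT 19 for Sult2a1 (4.17 CPM) and Cyp3a41b (1.43 CPM), and WT 23 for Cry2 (57.1 CPM), Lcor (15.8 CPM) and Zfp871 (33.5 CPM). WT 19 was below its group for Hspb1 (9.09 CPM) and Herpud1 (429 CPM).

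The KO minus WT difference at ZT12 departed from the mean difference at the other 5 times in 1271 genes, by a contrast in the same fit. On the log2 scale the departure was -2.08 for Per1, -1.82 for Per2, -2.97 for Per3, -4.25 for Gm129 and -1.28 for Bhlhe40, all repressors of the clock. Among the D-box factors and Nr1d2 it was -3.85 for Dbp, -1.78 for Tef, -0.61 for Hlf and -1.7 for Nr1d2. The other E-box targets gave -2.35 for Wee1, -1.4 for Nampt, -2.06 for Usp2 and -1.25 for Tspan4. Arntl (1.71) and Npas2 (6.5) departed upwards. The 8 genes with the smallest p were Spon2 (3.92), Hsd3b7 (1.33), Aqp8 (2.19), Dhrs3 (1.29), S100a10 (1.43), Smagp (1.42), Slc12a4 (-2.23) and Slc16a12 (-1.24).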

How the results depend on the processing

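The number of genes called ranged over the settings. It was 231 (124 higher and 107 lower) on the 8 libraries alone, 754 (429 and 325) without KO 20 and 21, 693 (381 and 312) with limma voom and quality weights on the 8 libraries, and 1069 to 2288 when each mouse was left out in turn (568 to 1306 higher, 460 to 982 lower). In the 6 cage mates it was 50 (31 higher and 19 lower) with the cage as a replicate block and 88 (48 and 40) without it. Calls within the gene lists numbered 48 on the 8 libraries alone, 73 without KO 20 and 21, 20 with and 22 without the cage block, 99 with voom, and 104 to 194 with 1 mouse left out. DESeq2 called 1898 genes and the fit with a length slope 1316.

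Arntl had a log2 fold change of 1.73 with the length slope and 2.17 with voom, both called, and 1.01 to 1.92 with 1 mouse left out, called only without WT 23. Genes whose difference at ZT12 departed from the other times numbered 693 without KO 20 and 21 and 864 to 1487 with 1 mouse left out. The body weight difference ranged from -5.92 to -3.92 g, and the exact p reached 0.0286 without KO 21. The REV-ERB response element was in a promoter of 1 of the 5 genes of the REV-ERB list that have one (Arntl, 27 bases after the start). It was in 0 when only the 250 bases before the start were read.

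Of the 150 named genes, 11 changed sign under some alternative, and none of the 11 was called between the genotypes. Nr1d1 had log2 fold changes of 0.0066 (length slope), 0.31 (without KO 20 and 21), 0.19 and 0.15 (with and without the cage block) and 0.12 (voom), and Nipal1 0.17, 0.29, 1.26, 0.46 and 0.64 in the same order. Cry1 had -0.047 without KO 20 and 21, and -0.0747 and -0.13 with and without the cage block. Cux2 had 0.63 and 0.78 with and without that block. Cyp4a12a had -2.48 and -0.35 there, and -1.30 with voom. Without KO 20 and 21, Lcor had 0.0348 and Cbl 0.0267. With 1 mouse left out the ranges were -0.24 to 0.19 for Nr1d1, -0.13 to 0.31 for Cry1, -1.41 to 0.38 for Cux2, -0.42 to 0.88 for Cyp2b13, -2.71 to 1.48 for Mup15, -0.45 to 0.60 for Nipal1, -2.74 to 1.62 for Mup17, -0.89 to 0.72 for Cyp4a12a and -0.0317 to 0.83 for Nes.

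The causes of these differences were not tested. With 4 mice per group, and 2 KO mice far from the rest, small changes can be missed: on simulated counts the fit on 48 libraries recovered 70% of genes changed 1.5-fold, and the fit on 8 libraries 40% of these and 80% at 2-fold. A KO or WT arm left with fewer mice is assumed to vary like the other groups.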
